A study of Capra hircus with 6 samples.

Results

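RNA-seq was used to examine genes of blood vessel growth in secondary hair follicle dermal papilla cells (SHF-DPCs), the mesenchymal cells at the base of the follicle that yields cashmere. The genes were chosen by name. They comprised the ligands VEGFA, VEGFB, VEGFC, ANGPT1 and ANGPT2, the receptors FLT1, KDR and TEK, the transcription factor ERG and the adhesion molecule PECAM1. They were picked with earlier results of these data known, so their values are given as a description, without a test. Of the 10 names, 9 had a row among the 15944 genes of the deposited table, and 8 were among the 12588 genes with enough counts for the fit. KDR had too few counts, and ANGPT2 was not analysed here.

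The cells were wild-type primary cultures from the skin of adult Albas cashmere goats (3 years old), taken from the right scapular region in the growth phase of the coat. According to the methods, cells of passages 4 to 7 were used. The 3 control cultures (Control 1 to 3) received culture medium, and the 3 ATRA-treated cultures (ATRA 1 to 3) received all-trans retinoic acid (ATRA), an active vitamin A metabolite, at 100 µM for 24 h. The methods state that the cells came from 3 animals without saying which library belongs to which animal, and the labels give 1 batch for all libraries. Cultured cells hold no perfused vessels, so the model covers what the cells themselves transcribe.

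Vascular endothelial growth factors (VEGFs) are secreted proteins that act on tyrosine kinase receptors of endothelial cells. KDR carries most of the VEGFA signal, and FLT1 binds VEGFA and VEGFB and can act as a decoy. ANGPT1 activates the receptor TEK and stabilizes vessels. Dermal papilla cells are a known source of VEGFA in skin, and the vessels around the follicle expand and regress with the hair cycle. ERG and PECAM1 are best known from endothelial cells, although PECAM1 is also found on leukocytes and platelets.

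Depth was 36887160 to 38012771 counts per control library and 35532339 to 36870939 counts per ATRA library. Counts were scaled by TMM, whose mean factor was 0.847 and 1.18, and are given as normalized CPM. CPM relates a count to the scaled size of its library and is not divided by transcript length, so levels are compared between groups and not between genes. The log2 fold change (log2FC) is ATRA over control, from edgeR's quasi-likelihood fit. A gene outside the chosen set is said to have risen or fallen at a Benjamini-Hochberg adjusted p under 0.05 over all genes tested (two-sided), and a differentially expressed gene (DEG) also had |log2FC| above 1. Of all tested genes, 40.9% rose and 38.7% fell (79.7% in all). By the DEG rule 13.7% of all tested genes were higher DEGs (1729) and 17.3% were lower DEGs (2173). The median log2FC of all tested genes was 0.04. Without TMM, by library size only, it was 0.52, with 3389 higher and 1471 lower DEGs. The retinoid response genes DHRS3 (3.47 ± 0.627 to 451 ± 23.0 CPM; log2FC 7.02) and CYP26B1 (87.5 ± 4.46 to 3842 ± 176 CPM; log2FC 5.46) rose in the treated libraries (edgeR adjusted p = 1.84e-20 and 1.55e-20; mean ± SD, n = 3).

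Of the 8 fitted genes, 2 were past the thresholds of a higher DEG (VEGFA and PECAM1), against 13.7% of all tested genes. Another 2 were past those of a lower DEG (ANGPT1 and ERG), against 17.3% (31.0% for both directions). The scaled values of the groups did not overlap for 3 higher genes (VEGFA, TEK and PECAM1), against 41.2% of all tested genes, and for 3 lower ones (VEGFC, ANGPT1 and ERG), against 39.0% (80.1% for both directions). Because the genes were chosen with this contrast known, nothing is read from these counts. The counts of all 9 genes are plotted by library.

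**Figure D1:**
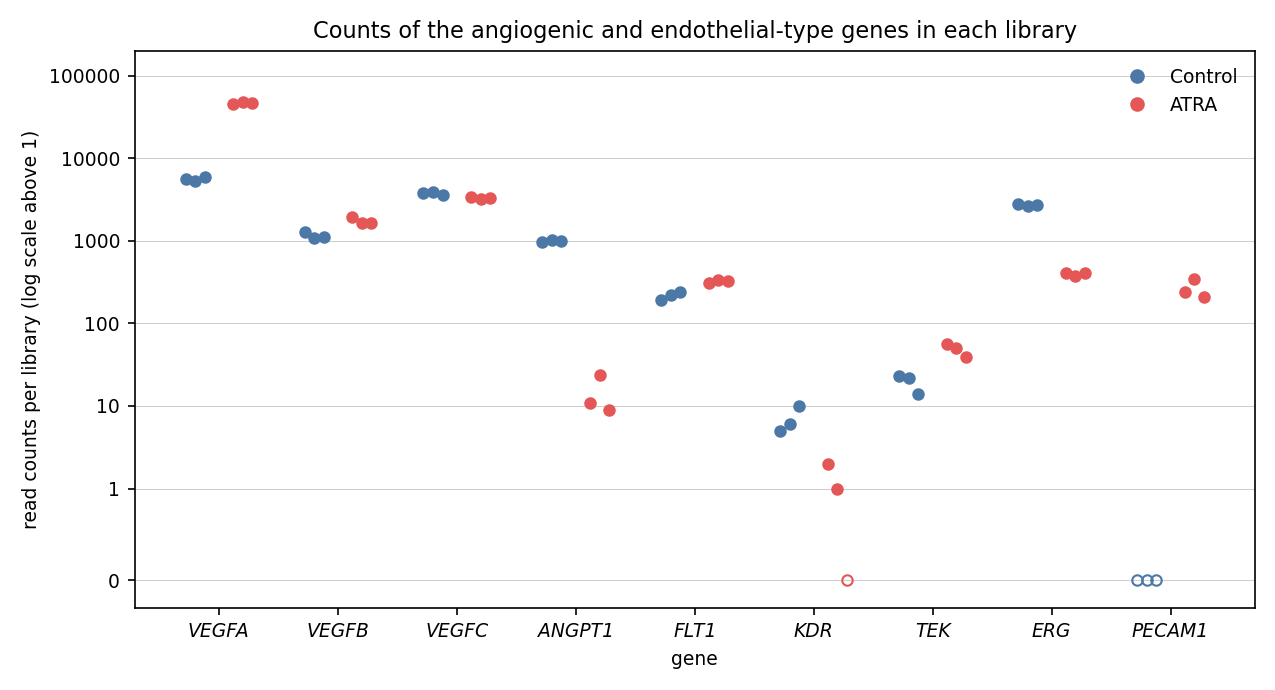
Read counts of the 9 listed genes (x axis) in each library (y axis, log scale above 1); each point is 1 library, blue for Control and red for ATRA, and open points are 0 counts. VEGFA sits higher and ANGPT1 and ERG lower in all 3 ATRA libraries, and PECAM1 is at 0 in all 3 Control libraries and between 206 and 340 counts in the ATRA libraries.

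Among the ligands, VEGFA, the main vessel growth factor, was higher with ATRA. It had 5612, 5350 and 5913 counts in Control 1 to 3 and 45655, 48180 and 47018 counts in ATRA 1 to 3. The groups lay far apart, and the libraries of a group were close to each other. Normalized VEGFA was 177 ± 9.98 CPM in the control group and 1095 ± 40.0 CPM with ATRA (SD, n = 3), a ratio of 6.19. The log2FC was 2.63 (SE 0.0637, 95% interval 2.50 to 2.76), and it ranked 442 from the highest among the 12588 tested genes. VEGFA took 0.0150% ± 0.000804 of all counts of a control library and 0.129% ± 0.00408 of those of an ATRA library (SD, n = 3).

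VEGFB, a ligand of FLT1, differed little. Its counts were 1267, 1089 and 1100 in the control group and 1936, 1633 and 1655 with ATRA, where the scaling factors were larger. After scaling, the groups overlapped, at 36.2 ± 3.97 and 40.6 ± 3.92 CPM (SD, n = 3). The log2FC of 0.16 had an interval from -0.02 to 0.35, which includes no difference and leaves out a difference of 2-fold in either direction. With library size as the only scaling the log2FC was 0.64, so whether VEGFB differed depends on the scaling.

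VEGFC, best known for its action on lymphatic vessels, was lower with ATRA. Its counts were 3795, 3915 and 3566 in the control group and 3390, 3239 and 3294 with ATRA. Both the counts and the scaled values of the groups lay apart, at 118 ± 6.17 and 77.2 ± 3.27 CPM (SD, n = 3). The log2FC was -0.61 (SE 0.0613, 95% interval -0.74 to -0.49), short of a 2-fold difference. With library size as the only scaling, it was -0.14.

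Within each library, the VEGF reads shifted toward VEGFA. VEGFA made up 52.6%, 51.7% and 55.9% of the summed VEGFA, VEGFB and VEGFC counts in Control 1 to 3 and 89.6%, 90.8% and 90.5% in ATRA 1 to 3. These shares need no scaling between libraries, although each also depends on transcript length. The share of VEGFC was 35.7% ± 2.06 in the control group and 6.36% ± 0.273 with ATRA, and that of VEGFB was 10.9% ± 0.817 and 3.35% ± 0.388 (SD, n = 3). The ratio of VEGFA to VEGFC reads was 1.48, 1.37 and 1.66 in the control libraries and 13.5, 14.9 and 14.3 in the ATRA libraries, a 9.46-fold difference of the means that no scaling changes.

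**Figure D2:**
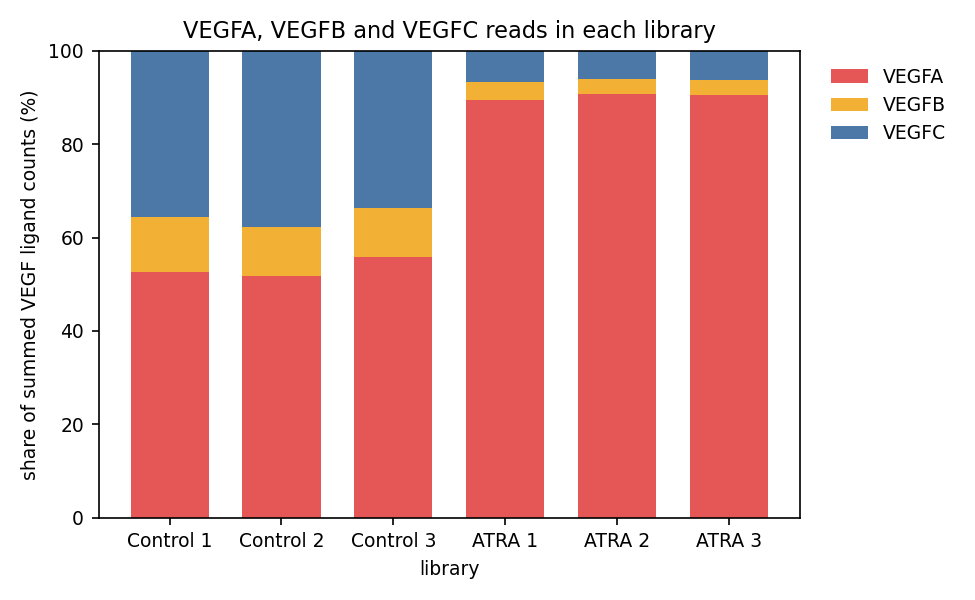
Share of the summed VEGFA, VEGFB and VEGFC counts taken by each ligand (y axis, %, from 0) in each of the 6 libraries (x axis); each bar is 1 library. VEGFA takes 51.7% to 55.9% in the Control libraries and 89.6% to 90.8% in the ATRA libraries.

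ANGPT1, the activating ligand of TEK, was nearly lost from the ATRA libraries. Its counts were 967, 1027 and 983 in the control group and 11, 24 and 9 with ATRA. All 3 control libraries were close together, whereas the ATRA libraries spread more. The SD of the ATRA libraries was 52.8% of their mean, beside 26.1% from counting error alone. Normalized ANGPT1 was 31.2 ± 0.574 CPM in the control group and 0.339 ± 0.179 CPM with ATRA (SD, n = 3), a ratio of 92.0. The log2FC was -6.50 (SE 0.169, 95% interval -6.85 to -6.14). It ranked 93 from the lowest among the 12588 tested genes.

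Of the receptors, FLT1 was present in every library. It had 194, 219 and 242 counts in the control group and 305, 339 and 323 with ATRA. The scaled groups overlapped, at 6.85 ± 0.646 and 7.52 ± 0.402 CPM (SD, n = 3). The log2FC of 0.13 had an interval from -0.12 to 0.38. With library size as the only scaling it was 0.61, so whether FLT1 differed depends on the scaling.

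KDR, the main VEGFA receptor of endothelial cells, was close to the detection limit. It had 5, 6 and 10 counts in the control group and 2, 1 and 0 counts with ATRA. No ATRA library reached a control library, but every value was small. Per unit of effective library size the control group had 9.43 times as many counts, with a counting interval from 2.82 to 49.4 (exact 95% interval, counting error only, which leaves out the spread between cultures).

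TEK, the angiopoietin receptor, was detected at low counts in both groups. It had 23, 22 and 14 counts in the control group and 57, 50 and 39 with ATRA. Every ATRA library was above every control library. Normalized TEK was 0.619 ± 0.162 and 1.13 ± 0.188 CPM (SD, n = 3), with a log2FC of 0.87 (SE 0.297, 95% interval 0.25 to 1.49). This was short of the 2-fold threshold, but TEK was past it without Control 1 (log2FC 1.01), and the log2FC was 0.66 without Control 3. The ratio of ANGPT1 to TEK reads was 53.0 ± 15.1 in control libraries and 0.301 ± 0.156 in ATRA libraries (SD, n = 3). The ligand was thus lower and the receptor higher in the same libraries, and the difference was larger for the ligand.

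ERG, an ETS family transcription factor, had clear counts in these cultures and was lower with ATRA. It had 2771, 2624 and 2739 counts in the control group and 405, 373 and 404 with ATRA. The groups were far apart and tight. Normalized ERG was 85.2 ± 4.08 and 9.20 ± 0.670 CPM (SD, n = 3), a ratio of 9.27, with a log2FC of -3.21 (SE 0.0790, 95% interval -3.38 to -3.05). FLI1, a close ETS relative also used by endothelial cells, had a log2FC of 0.01 (95% interval -0.19 to 0.21; edgeR adjusted p = 0.897), and of 0.49 with library size as the only scaling (adjusted p = 0.000185). The ratio of ERG to FLI1 reads was 6.29 ± 0.615 in control libraries and 0.674 ± 0.0935 in ATRA libraries.

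PECAM1, an adhesion molecule of cell junctions (CD31), was detected with ATRA only. Control 1 to 3 had 0 counts each, and ATRA 1 to 3 had 242, 340 and 206. The ATRA libraries held 6.10 ± 1.43 CPM (SD, n = 3). A count of 0 allows up to 3 counts, which is 0.0967 CPM in the shallowest control library after scaling, so PECAM1 was at least 63.1-fold higher with ATRA. The fitted log2FC depends on the prior count here and is not given.

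**Figure D3:**
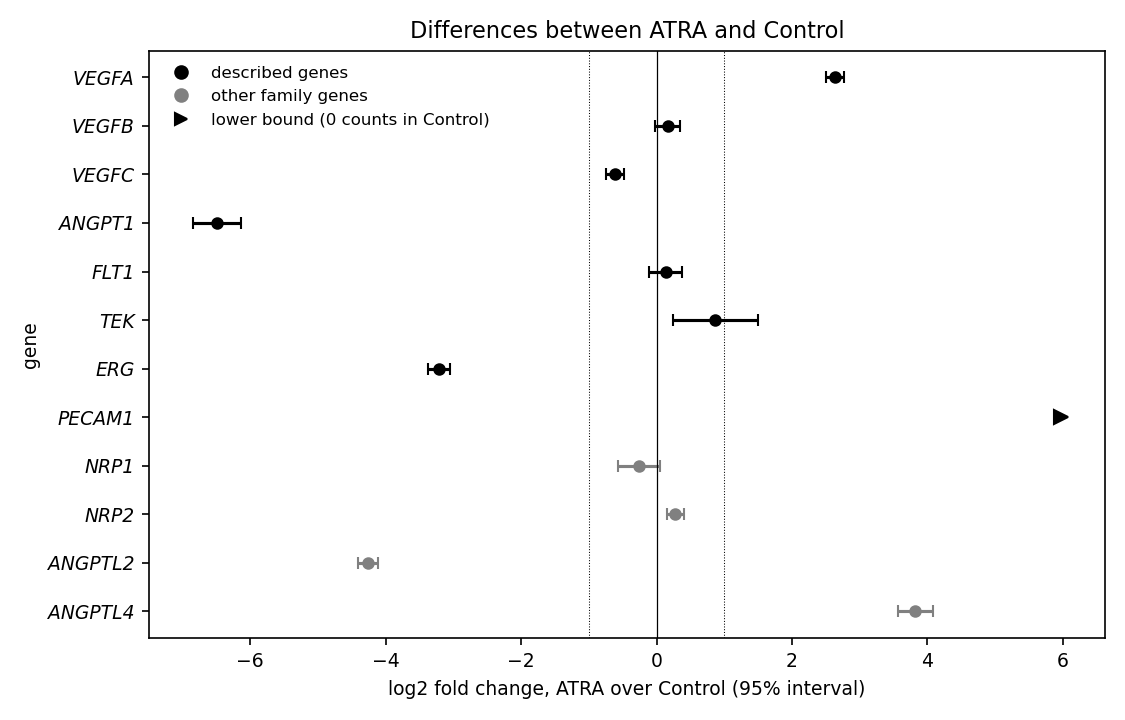
Log2 fold change of ATRA over Control (x axis) for the 8 fitted genes (black) and 4 other genes of the VEGF and angiopoietin family (grey), with 95% intervals as bars; dotted lines mark a 2-fold difference, and the triangle is the lower bound for PECAM1, which had 0 counts in Control. VEGFA, PECAM1 and ANGPTL4 lie beyond the 2-fold line on the right, ANGPT1, ERG and ANGPTL2 beyond it on the left.

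The nearest genes with a row on either side of a chosen gene were taken from the reference annotation. Some differed in the same direction as the chosen gene and others did not, where 40.9% of all tested genes rose and 38.7% fell. The neighbours of VEGFB, FLT1, KDR and TEK are not reported here. Beside VEGFA, MRPL14 (log2FC 0.65, edgeR adjusted p = 6.84e-07) and MRPS18A (0.24, 0.0130) rose, MRPS18A no longer past the test without Control 1 (log2FC 0.22), ATRA 1 (0.20) or ATRA 3 (0.19). Beside VEGFC, NEIL3 (-2.40, 8.06e-10) and SPCS3 (-0.41, 3.31e-06) fell, but SPCS3 did not with library size as the only scaling (log2FC 0.07). On either side of ERG, ETS2 had a log2FC of -0.01 (edgeR adjusted p = 0.853; 0.47 by library size only, adjusted p = 1.88e-06), and KCNJ15 had at most 3 counts in any library. Beside ANGPT1, OXR1 had a log2FC of 0.16 (adjusted p = 0.124; 0.64 by library size only, adjusted p = 1.64e-05), whereas RSPO2, a Wnt signal enhancer, fell from 1.55 ± 0.347 to 0.186 ± 0.0671 CPM (SD, n = 3; log2FC -3.03, adjusted p = 3.33e-07). Beside PECAM1, POLG2 rose (log2FC 1.32, adjusted p = 3.83e-10) and TEX2 rose by less (log2FC 0.44, adjusted p = 3.02e-06).

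The wider VEGF and angiopoietin family was then examined in 11 further genes, of which 7 had a row and 4 were tested. NRP2, a VEGF co-receptor, rose slightly, from 485 ± 11.1 to 588 ± 35.1 CPM (SD, n = 3; log2FC 0.28, edgeR adjusted p = 0.000338). NRP1, its relative, did not pass the test (log2FC -0.26, adjusted p = 0.115), and with library size as the only scaling its log2FC was 0.22. The angiopoietin-like genes went in opposite directions. ANGPTL4, a lipoprotein lipase inhibitor, rose from 54, 57 and 48 counts to 1035, 948 and 1053 counts (log2FC 3.82, 95% interval 3.56 to 4.09, adjusted p = 2.18e-15). ANGPTL2, a secreted glycoprotein, fell from 26874, 25257 and 26671 counts to 1966, 1850 and 1739 counts (log2FC -4.26, SE 0.0687, adjusted p = 9.46e-20). The remaining 3 had few counts. PGF had none in the control group and 3, 1 and 2 with ATRA, and VEGFD had at most 5 in any library. PTPRB, a phosphatase that acts on TEK, had 5, 15 and 16 counts in the control group and 0, 0 and 1 with ATRA, 48.5 times as many per effective library size in the control group (exact 95% counting interval 8.17 to 1969). PTPRB entered the fit and was a lower DEG without any 1 of Control 1, ATRA 1, ATRA 2 or ATRA 3.

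Other angiogenic factors and inhibitors, secreted proteins and some membrane receptors and ligands, were mostly lower. Of 32 listed genes, 27 were tested; 6 rose and 20 fell, with 6 higher and 17 lower DEGs (22.2% and 63.0%) and a median log2FC of -1.94, beside 13.7%, 17.3% and 0.04 over all tested genes. The list mixes genes that promote and genes that restrain vessel growth, and members of both kinds moved in both directions. ADM stands in this list and in that of the hypoxia genes.

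Among the promoting factors, CXCL8, a chemokine, rose from 518, 502 and 464 counts to 9989, 10102 and 8661 counts (log2FC 3.84, SE 0.0728, edgeR adjusted p = 8.20e-19). FGF2, a fibroblast growth factor, rose from 2.70 ± 0.346 to 12.2 ± 1.00 CPM (SD, n = 3; log2FC 2.17, adjusted p = 2.89e-11). FGF1, named after its values were seen, was at 0 in Control 1 to 3 and had 43, 53 and 31 counts with ATRA, at least 10.2-fold higher. In contrast, EDN1, which encodes the vasoconstrictor endothelin-1, had 786, 768 and 825 counts in the control group and 1 count in each ATRA library. That is 1069 times as many per effective library size in the control group (exact 95% counting interval 365 to 5186). CXCL12, the ligand of CXCR4, fell from 17.0 ± 1.83 to 0.364 ± 0.0436 CPM (log2FC -5.53, adjusted p = 8.64e-16).

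Among the inhibitors, THBS1 (thrombospondin-1), a matrix protein, fell from 812934, 862414 and 914416 counts to 13727, 18630 and 15392 counts (log2FC -6.19, SE 0.103, edgeR adjusted p = 3.92e-19). SPARC, another matrix protein, fell from 5319 ± 204 to 437 ± 10.5 CPM (SD, n = 3; log2FC -3.61, adjusted p = 3.80e-19). The vasohibins were split. VASH1, the inhibitor, rose from 3.96 ± 0.912 to 14.5 ± 0.331 CPM (log2FC 1.87, adjusted p = 4.16e-10). VASH2, its relative, which is not counted here as an inhibitor, fell from 14.5 ± 0.212 to 1.28 ± 0.212 CPM (log2FC -3.50, adjusted p = 4.12e-14). COL18A1, the precursor of endostatin, rose at a low level (log2FC 1.26, adjusted p = 6.51e-05). NOTCH4, which is an endothelial Notch receptor and is not counted here as an inhibitor, also rose at a low level (log2FC 1.47, adjusted p = 1.63e-05).

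VEGFA is a classical target of the hypoxia-inducible factors, and 17 genes of the hypoxia response were examined beside it. All 17 were tested; 13 rose and 4 fell, with 11 higher DEGs and 1 lower DEG (64.7% and 5.88%) and a median log2FC of 1.39, beside 13.7%, 17.3% and 0.04 over all tested genes. The members known for glucose use rose for the most part. SLC2A1, a glucose transporter, went from 2606, 2644 and 2663 counts to 25908, 28484 and 26481 counts (log2FC 2.92, SE 0.0598, edgeR adjusted p = 2.54e-18). LDHA, lactate dehydrogenase A, went from 422 ± 20.1 to 2249 ± 32.3 CPM (SD, n = 3; log2FC 2.41, adjusted p = 4.23e-17). PDK1, which restrains pyruvate entry into mitochondria, rose too (log2FC 1.20, adjusted p = 8.92e-10). PGK1, a glycolytic enzyme, fell instead, from 676 ± 31.5 to 461 ± 18.1 CPM (log2FC -0.55, adjusted p = 9.06e-08), and its log2FC was -0.07 and no longer past the test with library size as the only scaling.

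Most of the remaining targets rose as well. BNIP3, a mitophagy receptor, went from 51.1 ± 1.64 to 460 ± 12.3 CPM (SD, n = 3; log2FC 3.17, edgeR adjusted p = 7.24e-19). NDRG1 (log2FC 2.67, adjusted p = 1.00e-17), EGLN3, an oxygen-sensing hydroxylase (2.87, 9.20e-13), and ANKRD37 (1.78, 3.58e-06) rose, as did the histone demethylase KDM3A (1.39, 4.39e-13). CA9, a carbonic anhydrase with 4, 1 and 3 counts in the control group and 57, 75 and 65 with ATRA, had a log2FC of 4.14 (SE 0.417, adjusted p = 4.21e-08). ADM, the vasodilator adrenomedullin and likewise a hypoxia target, fell from 29846, 29673 and 30120 counts to 10638, 9788 and 9774 counts (95% interval of the log2FC -2.13 to -1.87, adjusted p = 6.66e-16). P4HA1, a collagen prolyl hydroxylase, fell by just under 2-fold (log2FC -0.96, adjusted p = 3.11e-11), and was past that threshold without Control 1 or without ATRA 2.

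The regulators themselves also differed. HIF1A rose from 285 ± 7.91 to 671 ± 104 CPM (SD, n = 3; log2FC 1.24, edgeR adjusted p = 2.69e-10) and EPAS1 from 359 ± 16.5 to 1231 ± 138 CPM (log2FC 1.78, adjusted p = 9.46e-14). Both encode oxygen-regulated subunits that are controlled mainly at the protein level, which was not measured here. ARNT, their partner, rose slightly (log2FC 0.42, adjusted p = 1.74e-05), and EGLN1, the main oxygen sensor, rose nearly 2-fold (log2FC 0.97, adjusted p = 6.33e-11). VHL, which marks the subunits for degradation, fell slightly (log2FC -0.46, adjusted p = 1.18e-05), but its log2FC was 0.02 with library size as the only scaling. Whether the hypoxia genes and VEGFA share a cause in these cultures was not tested.

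**Figure D4:**
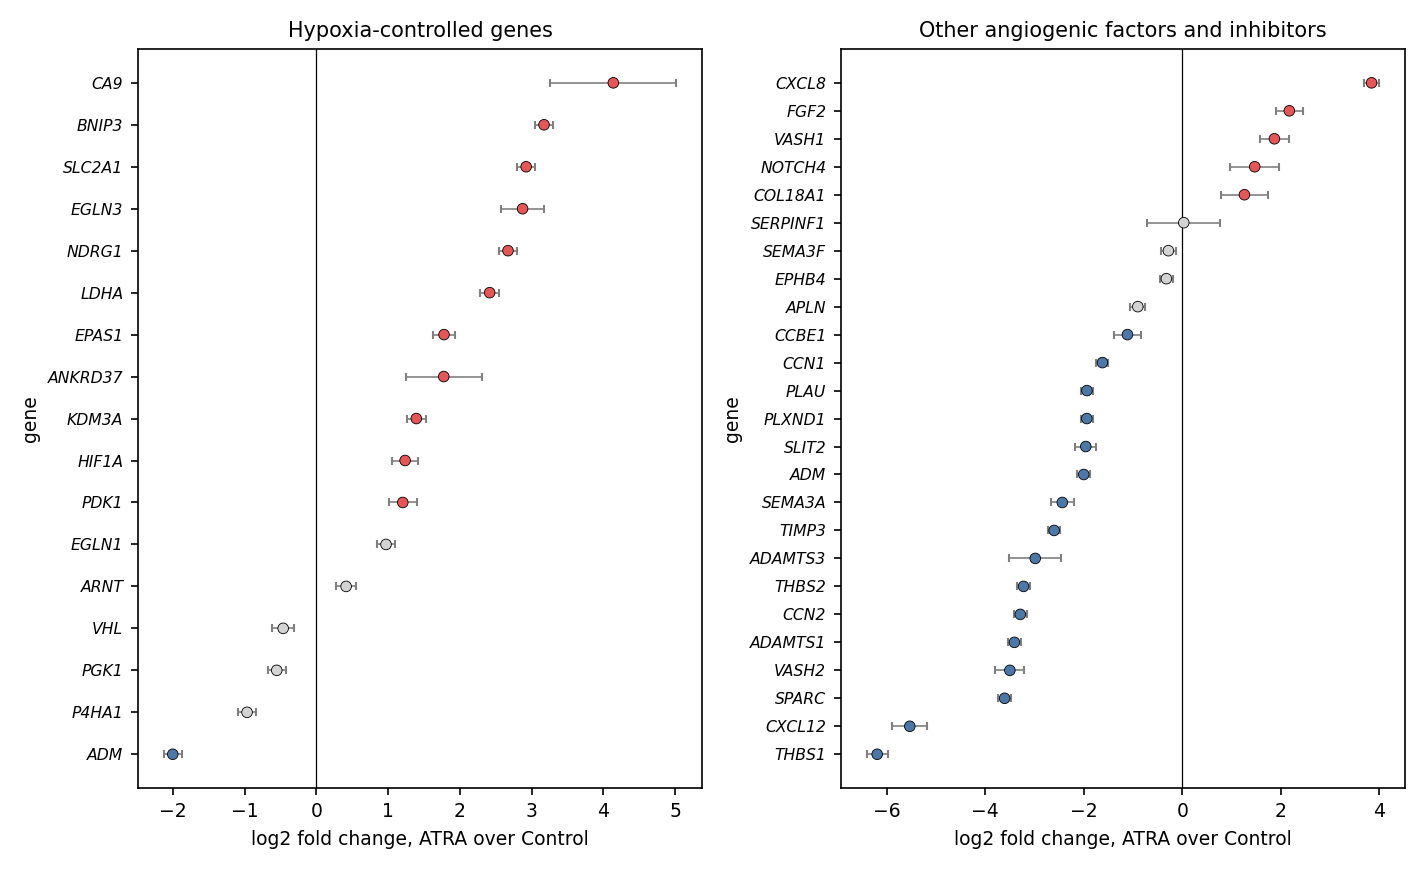
Log2 fold change of ATRA over Control (x axis) with 95% intervals for the tested hypoxia genes (left) and the other tested angiogenic factors and inhibitors (right; EDN1 and FGF1 are left out because a group had at most 1 count per library); red marks higher DEGs, blue lower DEGs and grey the rest. On the left 11 of 17 genes are red, and on the right blue points outnumber red ones.

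Because KDR, FLT1, TEK, ERG and PECAM1 are best known from endothelial cells, the libraries were examined for other endothelial genes. Defining markers were at or near 0. CDH5 (VE-cadherin), PLVAP and ESAM had 0 counts in every control library and at most 1, 1 and 3 counts in an ATRA library. MMRN2 had at most 2 counts and VWF at most 12 in any library of either group. EGFL7 alone among the 6 defining markers with a row was clearly detected, at 601, 711 and 705 counts in the control group and 540, 352 and 424 with ATRA. The ATRA libraries, with 206 to 340 counts of PECAM1, held at most 3 counts of CDH5, PLVAP, ESAM or MMRN2. The same libraries held at most 12 counts of VWF and 352 to 540 of EGFL7. Whether endothelial cells had a part in the PECAM1 counts was not tested. The other 5 of the 11 defining names had no row and were not analysed here.

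Of the whole list of 28 endothelial markers, 17 had a row and 7 were tested; 4 fell and 0 rose in edgeR's test (also 0 at an unadjusted p under 0.05, and 0 higher DEGs by DESeq2 or R's t.test function), beside 38.7% and 40.9% of all tested genes, with a median log2FC of -0.51. With library size as the only scaling, 3 fell and 1 rose (FLI1). With every gene of at least 1 count in the fit, TAL1 and PROX1, both of few counts, became higher DEGs, and TAL1 alone did so without any 1 of Control 1, Control 2, Control 3 or ATRA 3. TAL1, a blood and endothelial transcription factor, had 2, 2 and 5 counts in the control group and 25, 24 and 9 with ATRA. The summed level of the 17 genes was 288 to 327 CPM in control libraries and 196 to 214 CPM in ATRA libraries, most of it from ENG. ENG, a TGF-β co-receptor that mesenchymal cells also carry, fell from 239 ± 20.9 to 168 ± 6.63 CPM (SD, n = 3; log2FC -0.51, edgeR adjusted p = 9.30e-07), but with library size as the only scaling its log2FC, which is also the list's median, was -0.03. ESM1, a secreted proteoglycan, fell from 32.4 ± 2.84 to 10.9 ± 0.580 CPM (log2FC -1.57, adjusted p = 9.41e-12), and EGFL7 fell from a mean of 21.1 to 10.2 CPM (log2FC -1.04, adjusted p = 5.73e-07). APLNR, the apelin receptor, had 57, 60 and 87 counts in the control group and 1, 0 and 0 with ATRA, 275 times as many per effective library size in the control group (exact 95% counting interval 48.8 to 10911). VWF (adjusted p = 0.909), SOX18 (0.326) and FLI1 (0.897) did not pass the test.

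**Figure D5:**
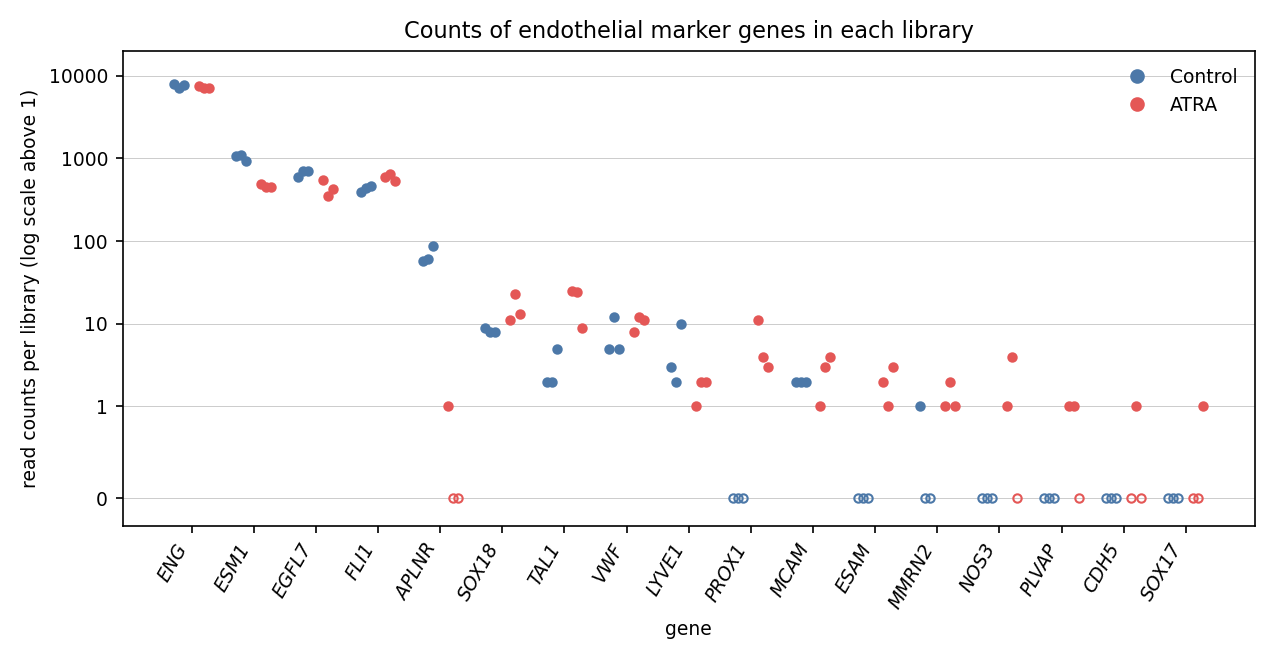
Read counts of the 17 endothelial markers with a row (x axis, ordered by summed counts) in each library (y axis, log scale above 1); each point is 1 library, blue for Control and red for ATRA, and open points are 0 counts. CDH5, PLVAP and ESAM have at most 3 counts in any library, whereas ENG, ESM1, EGFL7 and FLI1 have at least 352 counts in every library.

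Markers of other cells that carry PECAM1 or surround vessels moved as well. The 9 leukocyte and platelet markers with a row summed to 11.8 to 15.8 CPM in control libraries and 50.2 to 54.7 CPM in ATRA libraries, and 3 of the 4 tested rose, beside 40.9% of all tested genes. These were CD14 (log2FC 2.18, edgeR adjusted p = 5.35e-12), CD68 (1.41, 2.18e-06, but 0.0521 by R's t.test function) and ITGA2B (1.82, 1.78e-09), the platelet integrin. CD68 and ITGA2B stand among the defining leukocyte and platelet genes. Of the other defining genes, AIF1 and ITGAM had at most 2 counts and CSF1R at most 7 in any library, and PF4 at most 1. GP9 had 21, 10 and 15 counts in the control group and 36, 22 and 53 with ATRA. It did not pass the test (edgeR adjusted p = 0.0553), but with library size as the only scaling all 4 tested markers rose. PTPRC had no row and was not analysed here. Whether leukocytes or platelets had a part in the PECAM1 counts was not tested.

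The 9 mural cell markers with a row summed to 6999 to 7921 CPM in control libraries and 192 to 203 CPM in ATRA libraries. Most of the control sum came from ACTA2 (6206 to 7098 CPM). The paper stained its product, α-smooth muscle actin, as a marker of these papilla cells. All 6 tested fell, beside 38.7% of all tested genes, PDGFRB only slightly (log2FC -0.44, edgeR adjusted p = 5.04e-07). With library size as the only scaling PDGFRB did not fall (log2FC 0.04). Of the 3 untested, RGS5 had at most 5 counts and KCNJ8 at most 1 in any library. ABCC9 went the other way, with 0, 1 and 0 counts in the control group and 5, 10 and 13 with ATRA. ACTA2 (α-smooth muscle actin) had 220329, 200752 and 206944 counts in the control group and 397, 332 and 347 with ATRA, although reads shared with near-identical actin genes could be split between them. Keratinocyte markers were low in both groups (3.27 to 5.01 and 5.40 to 6.02 CPM summed over 10 genes), and the 3 melanocyte markers with a row summed to 16.1 to 17.6 and 32.2 to 39.0 CPM. Both lists were split. Of the keratinocyte genes, KRT10 rose (log2FC 0.82, adjusted p = 0.000328, but 0.0761 by R's t.test function), whereas KRT14 had 20, 14 and 10 counts in control libraries and 3, 0 and 0 with ATRA. KRT5 had 2, 7 and 3 counts in control libraries and none with ATRA. Of the melanocyte genes, MITF rose (log2FC 1.33, adjusted p = 1.99e-10) and PMEL fell (log2FC -0.90, adjusted p = 7.61e-05).

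The labelled cell type was checked in the same way. VIM, PDGFRA, THY1 and VCAN, general mesenchymal and dermal papilla genes, were abundant in the control group. All 10 tested dermal papilla and fibroblast markers fell with ATRA (median log2FC -2.87), beside 38.7% of all tested genes. With library size as the only scaling 8 of these markers fell, and FGF7 rose. Their summed level went from 22416 to 24246 CPM in control libraries to 1832 to 1875 CPM in ATRA libraries. PROM1, which encodes the papilla marker CD133, had 1, 0 and 0 counts in the control group and 0 with ATRA. The paper reported positive staining for the CD133 protein in these cells, whereas the counts here are of RNA. CORIN and ALPL had at most 1 count in any library. SOX2, also a papilla marker and not tested, went the other way at low counts. It had 5, 0 and 2 counts in the control group and 10, 16 and 9 with ATRA. In bulk libraries, fewer cells of a type and less RNA per cell cannot be told apart, and this holds for ANGPT1, ERG and VEGFA as for the marker genes.

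Finally, the annotation deposited beside the counts supplied lists that were not picked by hand, and the chosen genes were left out of them. Under the GO term angiogenesis, 112 of 142 genes were tested; 40 rose and 55 fell, or 35.7% and 49.1% beside 40.9% and 38.7% of all tested genes. Higher DEGs numbered 20 and lower DEGs 22 (17.9% and 19.6%), near the 13.7% and 17.3% of all tested genes. The median log2FC was -0.22, and with library size as the only scaling it was 0.26, with 59 genes that rose and 30 that fell. Among DEGs with a mean of at least 1 CPM, those that rose most were ANGPTL4, the polyamine enzyme SAT1 (log2FC 3.41, edgeR adjusted p = 3.02e-18), the netrin receptor UNC5B (3.02, 1.34e-14), the CXCL12 scavenger receptor ACKR3 (2.92, 3.99e-18) and the nuclear receptor RORA (2.85, 8.37e-12). Those that fell most were the collagen COL8A2 (log2FC -8.41, 3.99e-17; -9.48 without ATRA 2), the aminopeptidase ANPEP (-5.76, 4.48e-12), the proteoglycan CSPG4 (-4.73, 3.43e-20), the homeobox gene MEOX2 (-3.89, 3.92e-15) and SRPX2 (-3.73, 3.48e-16). ACKR3 rose while CXCL12, the ligand it clears, fell.

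Of the 48 genes annotated to the KEGG VEGF signaling pathway, which acts downstream of KDR, 44 were tested; 15 rose and 25 fell, or 34.1% and 56.8% beside 40.9% and 38.7% of all tested genes. Higher and lower DEGs numbered 6 each (13.6%), beside 13.7% and 17.3% of all tested genes. The median log2FC was -0.25, and with library size as the only scaling it was 0.22 (24 rose and 11 fell), so the balance of directions depends on the scaling. The phosphoinositide 3-kinase subunits were split. PIK3CB rose from 2.02 to 12.6 CPM (log2FC 2.63, edgeR adjusted p = 1.92e-11) and PIK3R1 rose from 63.2 to 146 CPM (1.20, 7.80e-12), whereas PIK3R3 fell (-1.41, 1.33e-08). The adaptor SHC2 (1.75, 4.94e-07) and PTGS2, the inducible cyclooxygenase (1.11, 9.19e-07), rose. PLA2G4A, the phospholipase that frees arachidonic acid for it, fell from 16.9 to 1.15 CPM (-3.87, 5.76e-14), and SPHK1, a sphingosine kinase, fell from 184 to 32.2 CPM (-2.51, 1.05e-16). The calcineurin subunit PPP3CA (-1.54, 1.05e-11) and the small GTPase CDC42 (-1.15, 7.92e-13) also fell. KDR itself was near the detection limit in both groups, as given above.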

How the data were processed

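RNA-seq of 3 control and 3 ATRA-treated SHF-DPC cultures was used. The authors enriched poly(A) mRNA, cleaned reads with fastp and TrimGalore v0.6.6 and deposited read counts per gene with GO and KEGG annotation. The counts are whole numbers without normalization. The submitters' processing notes list HISAT2, featureCounts and DESeq2; the genome build and strand setting are not given in the sources used here. Groups came from the labels.

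Genes were kept by edgeR's filterByExpr, scaled by TMM and fitted with the robust quasi-likelihood model (prior count 0.125, Benjamini-Hochberg over 12588 genes), tested on simulated data beforehand. The simulation changed few genes, in both directions, whereas 79.7% of all tested genes rose or fell here. It could therefore not check the scaling. CPM uses TMM-scaled library sizes. A group at 0 counts was set to a floor of 3 counts per library for lower bounds of folds; ratios with few counts carry exact binomial intervals. Floors and intervals cover counting error only. All 15944 gene names matched the reference gene table (assembly ARS1.2), which was used for names and neighbours. CCN1 and CCN2 were matched by older symbols, and CYP26A1, CYP26B1 and PF4 by the symbols of LOC rows. No sequences were used, and gene positions served only to find the nearest gene with a row on either side.

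The 10 genes and the lists (VEGF and angiopoietin family, other angiogenic factors, hypoxia, endothelial, leukocyte and platelet, mural, keratinocyte, melanocyte, dermal papilla, retinoid response, GO angiogenesis, KEGG VEGF signaling) were chosen with earlier results of these data known. Named from each list were up to 5 DEGs per direction with the largest |log2FC| and a mean of at least 1 CPM, all genes of the family and hypoxia lists, and markers with at least 1 CPM in a group. List genes below that level (the counts near 0, FGF1, CA9 and others) were chosen after looking at their values. Results for some list genes are not reported here.

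Alternatives were RLE, upper-quartile or library-size scaling, looser and stricter filters, DESeq2, the t.test function of R on log2(CPM + 1), an unadjusted p, no fold threshold, a pseudocount of 1, a block for the replicate number, and leaving out each library. Fits used edgeR 4.0.16 with limma 3.58.1 in R 4.3.3, and the alternative used DESeq2 1.42.0. Figures were drawn with matplotlib 3.10.9 under Python 3.11.15.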

Additional observations from a re-analysis of the deposited data

How the results depend on the processing

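Across the alternatives the number of chosen genes past the DEG thresholds stayed at 2 or 3 in each direction; the third was TEK (higher, library size only or without Control 1) or KDR (lower, every gene with at least 1 count). The log2FC of VEGFA ranged from 2.58 to 3.11, of ERG from -3.27 to -2.73, of VEGFC from -0.66 to -0.14, of TEK from 0.40 to 1.35 and of ANGPT1 from -7.03 to -4.59, the last with a pseudocount of 1. Of 1311 comparisons of 94 other named genes with an alternative, 1277 kept their direction and their side of the adjusted p threshold of 0.05. The fold threshold was not part of this count. Some genes that kept both crossed 2-fold, such as EGFL7 (log2FC -1.22 to -0.57) and EGLN1 (0.92 to 1.45).

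With library size only, the higher DEGs over all genes were 3389, those of the GO angiogenesis list 31, and the lower DEGs of the KEGG VEGF list 3, and signs turned for the medians of the GO (0.26) and KEGG lists (0.22), NRP1 (0.22), VHL (0.0168), PDGFRB (0.0357), FGF7 (0.25), SPCS3 (0.0672) and ETS2 (0.47). R's t.test function gave 1090 higher DEGs over all genes, 3 in the other angiogenic factors and 3 in the KEGG list. Without a fold threshold, 5151 genes were higher and 4877 lower. With every gene of at least 1 count, the endothelial list had 2 higher DEGs and a median of 0.46, and the family list 2 lower DEGs. The family median of 0.01 was -0.0110 by RLE and -0.0112 by DESeq2. Values near 0 also turned sign for FLI1 (-0.00649 by RLE, -0.00651 by DESeq2) and ETS2 (0.0641 by upper quartile, 0.000546 with at least 1 CPM in at least 3 libraries).

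Leaving out 1 library at a time gave 0 to 1 higher endothelial DEGs, 1 to 2 lower DEGs in the family list and 1 to 2 in the hypoxia list, and a family median from -0.475 to 0.0566; that median is set by NRP1 and NRP2, and by PTPRB where it entered the fit. It also gave log2FC ranges of -0.158 to 0.589 for VWF, -0.0387 to 0.0579 for FLI1 and -0.0328 to 0.00237 for ETS2. The correlations of the deviations of same-numbered libraries were 0.19, -0.0066 and -0.16, and no source ties a number to an animal, so pairing was not assumed and remains unknown; with the replicate number as a block, 1724 genes were higher and 2176 lower, and the counts of chosen genes past the thresholds were 2 in each direction. With 3 cultures per group, depth limited KDR, PTPRB, APLNR, EDN1 and the endothelial markers near 0.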

Other observations

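The retinoid response list gave 4 higher DEGs among 7 tested genes, beside 13.7% of all tested genes. CYP26A1, also in the list, was too low to be tested, with 0 counts in every control library and 0, 1 and 3 with ATRA. Besides DHRS3 and CYP26B1, which remove retinoids, RARB, a retinoic acid receptor, had 2, 2 and 1 counts in the control group and 108, 91 and 82 with ATRA, 41.7 times as many per effective library size (exact 95% counting interval 17.7 to 129). TGM2, a transglutaminase, rose from 10, 3 and 4 counts to 185, 169 and 152 counts (log2FC 4.44, edgeR adjusted p = 2.04e-10; 5.13 without Control 1). CRABP2, a cellular carrier of retinoic acid, rose by less (log2FC 0.22, adjusted p = 0.00285), and STRA6 did not pass the test (log2FC 0.68, adjusted p = 0.262) except without Control 3 (log2FC 1.64, adjusted p = 0.0365).

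Of the growth factors that papilla cells send to the follicle epithelium, BMP4 fell from 406 ± 18.7 to 15.9 ± 1.13 CPM (log2FC -4.67, edgeR adjusted p = 5.23e-20) and FGF10 from 2.46 ± 0.514 to 0.753 ± 0.150 CPM (SD, n = 3; log2FC -1.70, adjusted p = 5.89e-06). FGF7, their companion, differed little (25.7 ± 1.29 and 21.9 ± 0.809 CPM; log2FC -0.23, adjusted p = 0.0114), and with library size as the only scaling its log2FC was 0.25. LEF1, the Wnt effector of the papilla, fell by less than 2-fold (log2FC -0.54, adjusted p = 0.000108), and by library size only its log2FC was -0.06 and did not pass the test.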
